A study of Mus musculus with 6 samples.

Results

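The cytochrome P450 genes of families 1 to 4 were examined in mouse small intestinal crypt cells from mice in which Ptbp1 was deleted in gut epithelium. Members were all genes of the deposited gene table whose symbol has the form Cyp, a family digit from 1 to 4, a subfamily letter and a gene number, which gave 75 of 55331 genes. Pseudogenes and genes with a letter after the number, such as Cyp4a12a and Cyp3a41a, fall outside this form. Messenger RNA was sequenced from 3 WT libraries (genotype Ptbp1f/f, no Cre) and 3 PTBP1_KO libraries (genotype Ptbp1f/f;Vil-creER+/-). In the PTBP1_KO mice a tamoxifen-activated Cre is driven by villin regulatory sequence, which is active in intestinal epithelium, so the other cells of the gut are not its target. All mice were C57BL/6, 60 days old and given tamoxifen at 100 mg/kg on consecutive days. Both groups carried the floxed alleles and received the drug, and crypt cells were taken 20 h after the last injection. The labels number the libraries without naming animals, so the p-values measure the spread between these libraries, which may be technical.

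P450 enzymes are haem proteins, mostly anchored in the endoplasmic reticulum, that insert an oxygen atom into a substrate with electrons passed on by P450 oxidoreductase. Families 1 to 3 are known for the oxidation of drugs, plant compounds and pollutants, and several members of family 2 also make epoxides of arachidonic acid. Family 4 hydroxylates the far end of fatty acids and of eicosanoids such as leukotriene B4. In the small intestine these enzymes form, with the liver, the first barrier to swallowed compounds, and many are higher in villus than in crypt cells. The nuclear receptors PXR (Nr1i2), CAR (Nr1i3) and PPARα (Ppara) and the aryl hydrocarbon receptor (Ahr) are the textbook activators of families 3, 2, 4 and 1.

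Gene levels were given by the authors as 1 FPKM value per group (fragments scaled by transcript length and library size), so the levels carry no error of their own and their depth is unknown. A gene counted as called when the authors' q-value, a p-value adjusted over all tested genes, was below 0.05. Ptbp1, the deleted gene, had 230.0 FPKM in WT and 123 in PTBP1_KO and was called (q = 0.0125 in the authors' deposited table). The epithelial markers Epcam and Vil1 had 1219.8 and 423 FPKM in WT. Alb, the main secreted protein of hepatocytes, had 0.0821 FPKM in WT, and of 6 hepatocyte markers 2 reached 1 FPKM in WT. These were Ttr (4.16 FPKM in WT, 3.22 in PTBP1_KO) and Apoa2 (2.54 FPKM and 2.25 FPKM). Of 7 acinar genes, Amy2b, Pnlip and Prss2 were listed at 0 in both groups. Only 1 acinar gene, Cela1, reached 1 FPKM in WT (6.07 FPKM in WT, 6.72 in PTBP1_KO). The summed FPKM of 7 Paneth cell markers was 9527 in WT and 15538 in PTBP1_KO (7 of 7 higher, 3 called). That of 11 immune cell markers was 898 and 1089.7 (10 of 10 tested higher, 3 called). Cd74 held most of the immune sum, with 790 FPKM in WT and 898 in PTBP1_KO. Its log2 ratio was 0.19, against a median of 0.61 over the tested immune markers. For 8 tuft cell markers it was 87.1 and 56.6 (8 of 8 lower, 1 called). None of these Paneth, immune and tuft cell markers was listed at 0.

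No member of the P450 families was called. Of the 75 members, the authors tested 32, and 0 of these passed q < 0.05 in the authors' deposited table, which was made with Cuffdiff. The share called over all 15460 tested genes was 0.537% (0.388% higher and 0.149% lower in PTBP1_KO), which for 32 genes is less than 1 gene, so a count of 0 does not set the members apart. The unadjusted p in the authors' deposited table was below 0.05 for 0 members and for 4.35% of all tested genes. Member p-values ran from 0.0609 (Cyp1a1) to 0.955 (Cyp2d26), and every member q was 0.9998. Relative to WT, 14 tested members were higher and 18 lower in PTBP1_KO. Their median log2 ratio was -0.06, against 0.02 over all tested genes, where 45.3% were lower. Ratios were computed as log2((PTBP1_KO + 1)/(WT + 1)), which understates the change of genes with low FPKM. The sum over all 75 members was 767 FPKM in WT and 770.4 in PTBP1_KO, or 100.4% of WT. Over all genes of the table, the sum in PTBP1_KO was 104.2% of WT.

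Only a minority of the P450 genes had substantial RNA in the crypt cell samples of the control mice. These samples also held enterocyte RNA: all 10 enterocyte markers reached 5 FPKM in WT, from 23.6 (Mep1a) to 2580 (Apoa1). How much of the P450 RNA came from enterocytes was not tested. At least 1 FPKM in WT was listed for 20 members, and these held 99.1% of the summed member FPKM. A further 12 tested members lay below 1 FPKM, and 43 were not tested. Of these, 16 had a value of 0 in both groups. The highest FPKM of an untested member was 0.185 (Cyp2c67 in PTBP1_KO). By family, at least 1 FPKM was reached by 0 of 3 members of family 1, 11 of 48 of family 2, 3 of 7 of family 3 and 6 of 17 of family 4. None of the 4 Cyp2a genes, whose best known products oxidise steroids and coumarin, exceeded 0.00425 FPKM. Some genes of the hepatic P450 set were low or listed at 0, though no list of that set was counted. Cyp1a2 and Cyp4a14 were listed at 0 in both groups, and Cyp2e1, which oxidises ethanol, had 0.297 FPKM in WT and 0.232 in PTBP1_KO.

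**Figure D1:**
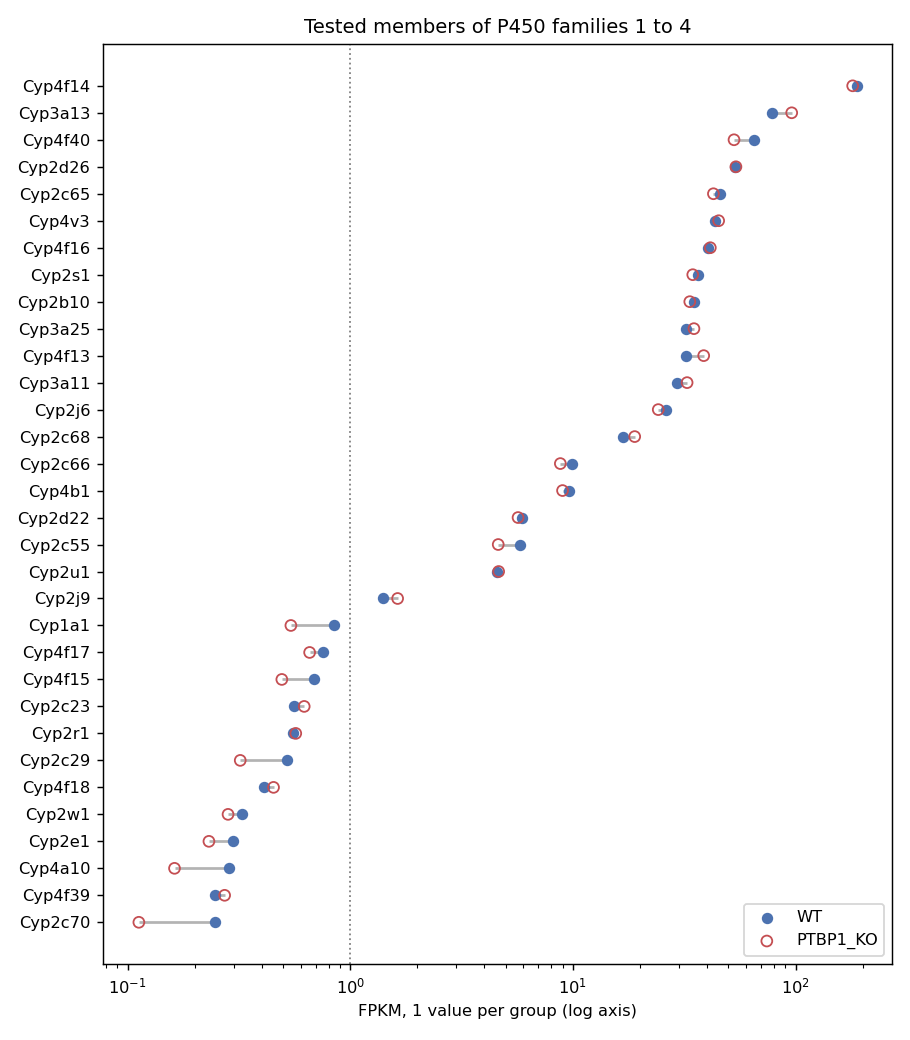
FPKM of the 32 tested P450 members in WT (filled) and PTBP1_KO (open), on a log axis, with 1 value per group and no error bars because the table gives none. The 20 members right of the dotted line at 1 FPKM lie close to each other in both groups, and wider gaps are seen among those below 1 FPKM.

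The Cyp4f subfamily, fatty acid and leukotriene hydroxylases, was the most abundant. Its 9 members summed to 328 FPKM in WT and 316 in PTBP1_KO, which is 42.7% and 41.0% of the member total. Of the 9, 8 lie in a cluster on chromosome 17 between 32452723 and 32947402 (mm10). Cyp4f14, a leukotriene B4 hydroxylase, had the highest level of any member, 188 FPKM in WT and 181 in PTBP1_KO (log2 ratio -0.06, p = 0.737 in the authors' deposited table). Its neighbours in the cluster did not share a direction. Cyp4f40 had 64.8 FPKM in WT and 52.9 in PTBP1_KO, a log2 ratio of -0.29 (p = 0.157 in the authors' deposited table). That ratio was the lowest of any member with the pseudocount of 1. With a pseudocount of 0.1, Cyp2c55 (-0.32) and some of the members below 1 FPKM were lower than Cyp4f40 (-0.29). The lowest was -0.70 for Cyp2c70, which had 0.246 FPKM in WT and 0.112 in PTBP1_KO (p = 0.102 in the authors' deposited table). Cyp4f13 had 32.2 FPKM in WT and 38.7 in PTBP1_KO, a log2 ratio of 0.26 (p = 0.242 in the authors' deposited table). Cyp4f16 differed little, with 40.6 FPKM in WT and 41.4 in PTBP1_KO. Cyp4f15 had 0.687 FPKM in WT and 0.493 in PTBP1_KO, and the rest of the subfamily (Cyp4f17, Cyp4f18, Cyp4f37 and Cyp4f39) stayed below 1 FPKM in both groups.

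Outside the cluster, family 4 held 2 other expressed genes. Cyp4v3, the mouse counterpart of the fatty acid hydroxylase mutated in Bietti corneoretinal dystrophy, had 43.6 FPKM in WT and 45.2 in PTBP1_KO (log2 ratio 0.05, p = 0.749 in the authors' deposited table). Cyp4b1, which acts on fatty acids and furans, had 9.59 FPKM in WT and 8.99 in PTBP1_KO (log2 ratio -0.09). The Cyp4a genes are classical PPARα targets in liver. Here the 5 of them summed to 0.385 FPKM in WT and 0.205 in PTBP1_KO, with Cyp4a10 at 0.285 and 0.162 FPKM (p = 0.0891 in the authors' deposited table).

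All 3 expressed Cyp3a genes, the main drug oxidases of the gut, had higher values in PTBP1_KO, and none was called. Cyp3a13, a form known from the intestine, had 78.7 FPKM in WT and 96.1 in PTBP1_KO. The log2 ratio of 0.29 was the highest of any tested member (p = 0.0731 in the authors' deposited table). With a pseudocount of 0.1, the untested Cyp3a44 (0.38), Cyp2d34 (0.34) and Cyp2j11 (0.30) were higher. Cyp3a11 had 29.3 FPKM in WT and 32.6 in PTBP1_KO (log2 ratio 0.15, p = 0.327 in the authors' deposited table). Cyp3a25 had 32.3 FPKM in WT and 35.0 in PTBP1_KO (log2 ratio 0.11, p = 0.462 in the authors' deposited table). The 7 Cyp3a genes summed to 140.4 FPKM in WT and 164 in PTBP1_KO, or 117% of WT. All lie on chromosome 5, Cyp3a13 at 137892932 to 137921619 and Cyp3a11 and Cyp3a25 at 145854426 to 145879964 and 145977194 to 146009618. Cyp3a44, in the same group of genes, had 0.0266 FPKM in WT and 0.0644 in PTBP1_KO and was not tested.

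**Figure D2:**
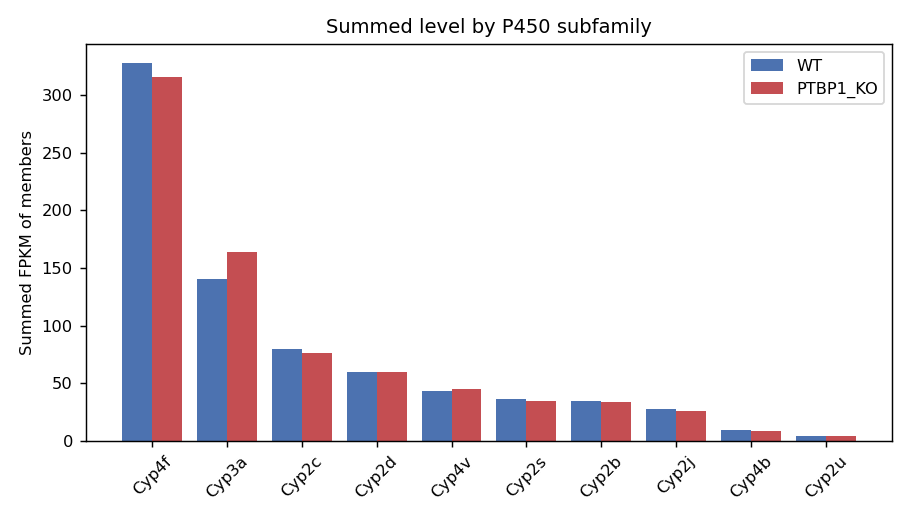
Summed FPKM of the members of each P450 subfamily with at least 1 FPKM in total, in WT and PTBP1_KO (1 value per group, bars from 0). Cyp4f is the tallest pair at 328 and 316 FPKM, and Cyp3a, at 140.4 and 164 FPKM, shows the widest gap in favour of PTBP1_KO.

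Family 2 holds the epoxygenases and the remaining drug oxidases. The Cyp2c genes, which make epoxides of arachidonic acid, have 15 members. Those with coordinates lie on chromosome 19, and 4 of them reached 1 FPKM in WT. Cyp2c65 had 45.9 FPKM in WT and 42.8 in PTBP1_KO (p = 0.488 in the authors' deposited table). Cyp2c68 had 16.7 FPKM in WT and 19.0 in PTBP1_KO (p = 0.280 in the authors' deposited table). Cyp2c66 had 9.90 FPKM in WT and 8.79 in PTBP1_KO. Cyp2c55, an epoxygenase known to be induced through CAR and PXR, had 5.79 FPKM in WT and 4.62 in PTBP1_KO (log2 ratio -0.27, p = 0.123 in the authors' deposited table). Of the 7 tested Cyp2c genes, 5 had a lower value in PTBP1_KO. Below 1 FPKM, Cyp2c29, a hepatic CAR target, had 0.522 FPKM in WT and 0.321 in PTBP1_KO, and Cyp2c23 had 0.556 FPKM and 0.621 FPKM.

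The other members of family 2 with at least 5 FPKM had log2 ratios between -0.11 and 0.01. Cyp2d26 had 53.6 FPKM in WT and 54.0 in PTBP1_KO, and Cyp2d22 had 5.93 FPKM and 5.67 FPKM. Both belong to the Cyp2d cluster on chromosome 15, where the 6 other members were not tested. Cyp2s1, an epithelial P450 found outside the liver, had 36.4 FPKM in WT and 34.6 in PTBP1_KO. Cyp2b10, the classical CAR target, had 35.0 FPKM in WT and 33.5 in PTBP1_KO. Cyp2j6, an epoxygenase of the intestine, had 26.2 FPKM in WT and 24.2 in PTBP1_KO. Lower levels were listed for Cyp2u1, a fatty acid hydroxylase, at 4.58 FPKM in WT and 4.64 in PTBP1_KO. Cyp2j9 had 1.40 FPKM in WT and 1.63 in PTBP1_KO. Cyp2r1, a vitamin D 25-hydroxylase, had 0.554 FPKM in WT and 0.569 in PTBP1_KO.

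Family 1 was nearly silent in both groups. Cyp1a1, the standard readout of an active aryl hydrocarbon receptor, had 0.843 FPKM in WT and 0.541 in PTBP1_KO. The log2 fold change of -0.64 had p = 0.0609 in the authors' deposited table, the smallest p of any member. Cyp1b1 had 0.0389 FPKM in WT and 0.0124 in PTBP1_KO and was not tested.

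The size of the member differences was set beside that of called genes. Among the 20 members of at least 1 FPKM, 10 were higher and 10 lower, and the median absolute log2 ratio was 0.105, against 0.0960 over all tested genes of at least 1 FPKM. The smallest absolute log2 ratio among the 53 called genes of at least 5 FPKM was 0.55. No member of at least 5 FPKM exceeded 0.29. A change of the size seen in the members was thus not called for any gene of at least 5 FPKM in this table.

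**Figure D3:**
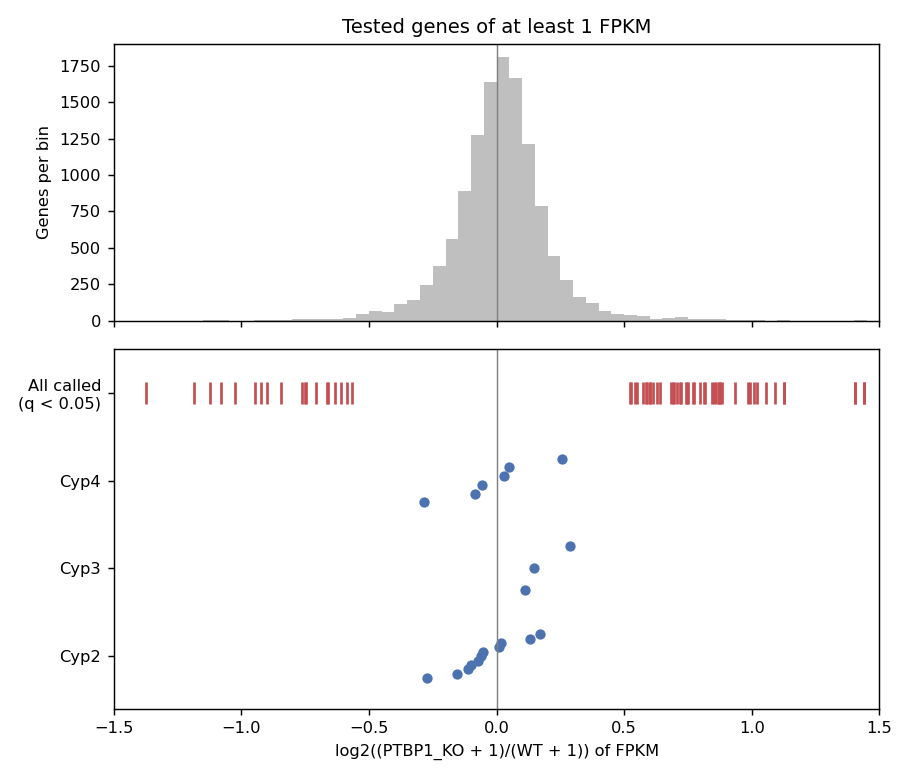
Top, log2((PTBP1_KO + 1)/(WT + 1)) of all tested genes of at least 1 FPKM. Bottom, the same ratio for members of families 2, 3 and 4 of at least 1 FPKM (points, each a gene, spread vertically for clarity) and for the 68 called genes of at least 1 FPKM (bars). The members lie between -0.29 and 0.29, within the bulk of all genes, while called genes start at an absolute ratio of 0.52. The axis ends at 1.5, which leaves out 9 genes, 3 of them called.

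Near-identical copies make some single values uncertain. Words of 50 bases from each member's GENCODE M21 transcripts were looked up in the transcripts of all other genes. Among tested members, more than 20% of words were shared for 4 genes: 43.3% for Cyp2c68, 29.8% for Cyp4a10, 26.8% for Cyp3a25 and 20.6% for Cyp2c65. The closest partners were Cyp2c40, Cyp4a32, Cyp3a59 and Cyp2c66. For 10 of the 20 members of at least 1 FPKM the share was at most 5%, among them Cyp4f14 (2.39%), Cyp4f13 (1.11%), Cyp4f40 (1.60%) and Cyp3a13 (0% shared).

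The genes that act with or upon the P450s were read from lists. Of 11 redox partners and haem supply genes, 0 were called, against 0.537% of all tested genes. Por, the oxidoreductase that feeds electrons to all these enzymes, had 49.0 FPKM in WT and 52.5 in PTBP1_KO. Cyb5a, the cytochrome b5 that assists some of them, had 353 FPKM and 359 FPKM. Among 19 tested regulators, 0 were called, 6 were higher and 13 lower. At that overall share, a count of 0 does not set either list apart. Only Pparg (5.23 FPKM in WT, 3.30 in PTBP1_KO) and Onecut2 (5.37 FPKM and 3.84 FPKM) had an unadjusted p below 0.05, at 0.00405 and 0.00135 in the authors' deposited table. Nr1i2 (PXR) had 36.3 FPKM in WT and 36.2 in PTBP1_KO, and Nr1i3 (CAR) had 23.5 FPKM and 20.1 FPKM. Hnf4a, a nuclear receptor of enterocytes and hepatocytes, had 219 FPKM and 211 FPKM. Ahr had 2.82 FPKM and 2.68 FPKM, its partner Arnt 11.6 FPKM and 12.2 FPKM, and Ppara 3.89 FPKM and 4.81 FPKM.

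Targets of the same receptors outside the P450 genes were compared in the same way. No gene was called among 5 tested targets of the aryl hydrocarbon receptor (median log2 ratio 0.08) or 16 targets of PPARs (0.01). Over all tested genes the share called was 0.537%, so these counts of 0 do not set the lists apart. Of 16 CAR and PXR targets, 1 was called and the median was -0.02. That gene was Ephx1, the microsomal epoxide hydrolase that acts on epoxides made by P450s. It rose from 5.23 (WT) to 15.5 FPKM (PTBP1_KO), with a log2 fold change of 1.57 and q = 0.0125 in the authors' deposited table. The P450 targets of the same receptors differed in sign and none was called: the log2 ratio was -0.06 for Cyp2b10, -0.27 for Cyp2c55, -0.20 for Cyp2c29 and 0.15 for Cyp3a11.

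Other enzymes of arachidonic acid metabolism had lower values in PTBP1_KO. All 9 tested genes of a list of 13 eicosanoid enzymes were lower, with a median log2 ratio of -0.35 against 0.02 over all tested genes, and 1 was called. This was Alox5, the 5-lipoxygenase that starts leukotriene synthesis, which fell from 5.55 FPKM to 3.15 FPKM in PTBP1_KO (q = 0.0227 in the authors' deposited table). Its activating protein Alox5ap had 12.2 FPKM and 7.72 FPKM (q = 0.302 in the authors' deposited table), and the cyclooxygenase Ptgs1 had 3.14 FPKM and 1.82 FPKM (q = 0.769 in the authors' deposited table). Tuft cells are a known source of these enzymes, Ptgs1 is also on the tuft list, and the tuft marker Sh2d6 was called lower as well. In these bulk samples fewer cells of a type and less RNA per cell cannot be told apart, and the part of tuft cells in the Alox5 result was not tested.

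Position along the gut bears on P450 levels, so regional genes were read beside them. Of 8 proximal genes, 3 were higher and 5 lower, and Pdx1, a transcription factor of the duodenum, fell from 2.32 FPKM to 0.629 FPKM in PTBP1_KO (q = 0.0125 in the authors' deposited table). All 7 distal genes were higher, with a median of 0.20, and Slc10a2, the ileal bile acid transporter, rose from 3.82 to 6.06 FPKM (q = 0.0125 in the authors' deposited table). Of 9 tested enterocyte markers, 4 were higher, 5 lower and 0 called (0.537% over all tested genes), with a median of -0.02. The part of gut region in the P450 values was not tested.

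Splicing of the P450 genes was examined in the 5 deposited event tables, because PTBP1 is a repressor of many alternative exons. The tables compare a first with a second set of libraries without naming the genotype of either, so no direction by genotype is given. An event counted as changed at an FDR below 0.05, an inclusion level difference of 0.1 or more in the authors' deposited table. Events needed 20 or more reads per library on average. Members had 103 such events, in 21 genes, of which 76 were skipped exons and 16 mutually exclusive exon pairs. The median member event was covered by 541 reads per library. None of the 103 was changed, against 1.56% of 53918 events of all genes. An FDR below 0.05 with any difference was listed for 2 member events (1.94%), against 3.76% of all events. No member event had a difference of 0.1, and the median absolute difference was 0.005, against 0.008 over all events.

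The skipped exon with the smallest p, in Cyp4f13, is annotated in no protein-coding transcript. It is 136 nt long (chromosome 17, 32938072 to 32938207, minus strand, mm10) and is annotated in 1 of 14 Cyp4f13 transcripts of GENCODE M21, Cyp4f13-205, which is marked for nonsense-mediated decay. The stop codon of that transcript starts at base 12 of the exon, at 32938194 to 32938196. The first 30 bases of the exon, read from the GENCODE M21 transcript 5′ to 3′ with the stop codon in capitals, are shown because inclusion of the exon brings that stop codon into the message:
Cyp4f13-205 exon: gattcctctatTGAagctctggctgtcctg

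In the authors' deposited table the inclusion level difference of this exon was 0.082 with an FDR of 6.48e-12, just under the difference of 0.1. It was covered by a mean of 155 reads per library, with 116 in the lowest library. Over all libraries 96 reads supported inclusion and 833 skipping, which gives an inclusion level of 5.60% after division by the effective lengths. By library, inclusion ranged from 0% to 13.0% with a median of 3.46%. The levels of the first and second set of libraries did not overlap, which was so for 10 of the 103 member events (9.71%) and 9.15% of the events of all genes. Recomputed without the third library of the first set, the difference was 0.106, past 0.1, and it was 0.064 to 0.087 without any other library. The exon was thus mostly skipped, and the level of the gene (32.2 FPKM in WT and 38.7 in PTBP1_KO) was not called. None of the 15 other Cyp4f13 events of at least 20 reads had an FDR below 0.05.

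The other event past the FDR was a 145 nt coding exon of Cyp4f16 (chromosome 17, 32540271 to 32540415, plus strand), which is the opposite case of an exon that is nearly always kept. Its difference was -0.033 with an FDR of 0.00619 in the authors' deposited table. It had a mean of 547 reads and 96.8% inclusion over all libraries, with a range of 91.7% to 99.0% between libraries. Recomputed without the second library of the first set, the difference was -0.017. Among the listed skipped exon events, coding exons of the same length were found in 3 other Cyp4f genes. Exons without a listed event were not searched. The exon of Cyp4f13 (32941056 to 32941200, minus strand) had 97.8% inclusion, a difference of -0.016 and an FDR of 0.397 in the authors' deposited table. These values are of its entry with the most reads. Its other entries had differences of 0.027 and -0.011, none with an FDR below 0.05 in the authors' deposited table. The exon of Cyp4f40 (32662118 to 32662262, plus strand) had 98.5% and that of Cyp4f14 (32914538 to 32914682, minus strand) had 99.1%, both with an FDR of 1 in the authors' deposited table. Aligned without gaps, the exons of Cyp4f13 and Cyp4f16 were 70.3% identical, those of Cyp4f14 and Cyp4f40 71.0%, and all pairs across these groups 48.3% to 49.0%. The first pair is shown 5′ to 3′ from GENCODE M21 transcripts, with the 43 bases that differ between them in capitals, because only the exon of Cyp4f16 passed the FDR:
Cyp4f16 exon: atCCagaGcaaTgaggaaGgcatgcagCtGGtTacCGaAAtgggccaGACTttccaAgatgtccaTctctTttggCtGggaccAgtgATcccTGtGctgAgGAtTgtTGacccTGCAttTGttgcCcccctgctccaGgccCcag
Cyp4f13 exon: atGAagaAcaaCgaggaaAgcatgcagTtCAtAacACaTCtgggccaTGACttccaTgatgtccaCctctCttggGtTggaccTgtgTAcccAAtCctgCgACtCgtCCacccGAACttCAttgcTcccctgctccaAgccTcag

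Most other skipped exons of members were close to constitutive. Of the 76 skipped exon events, 68 had at least 95% inclusion over all libraries, 3 at most 5% and 5 in between. Of the 16 mutually exclusive exon events, 12 lay between 5% and 95%. Other intermediate levels were found in Cyp2d22, where a 142 nt exon (chromosome 15, 82372785 to 82372926) had 59.8% inclusion and 2 introns were retained at 24.5% and 35.6%. An alternative 3′ splice site of Cyp4f14 was used at 79.4%, with 813 reads per library. The FDR of these 4 events of Cyp2d22 and Cyp4f14 was 1 in the authors' deposited table. After Cyp4f13, the largest differences among member events in the authors' deposited table were 0.071 and -0.070, for mutually exclusive exons of Cyp4f40 and Cyp4f13. Their FDR was 0.119 and 0.430 in the authors' deposited table.

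**Figure D4:**
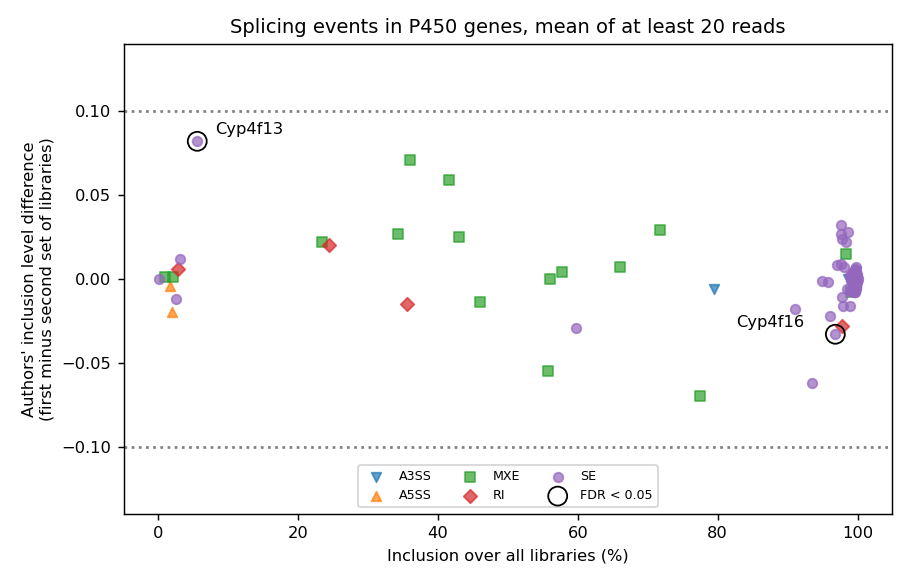
Inclusion over all libraries (x axis, percent) and the authors' inclusion level difference between the first and second set of libraries (y axis) for the 103 member events covered by 20 or more reads on average, by event type (SE, skipped exon; A5SS and A3SS, alternative 5′ and 3′ splice sites; MXE, mutually exclusive exons; RI, retained intron). All points lie between the dotted lines at 0.1 and -0.1, and the circled events of Cyp4f13 (0.082) and Cyp4f16 (-0.033) are those with an FDR below 0.05.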

How the data were processed

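The tools were STAR 2.6.1d, Trimmomatic 0.38, bcl2fastq 2.20, Cuffdiff and Cufflinks, with mm10, per the submitters' processing notes. The deposited gene table holds 1 FPKM value per group, with a log2 fold change, a p-value and a q-value that the authors computed, per the file headers. The deposited splicing tables give whole-number reads per library, and the authors' p-value, FDR and inclusion level difference, a score from -1 to 1. The splicing caller's version is not given in the sources used here. Not used were 10 columns of per-library inclusion levels.

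Groups came from the sample titles. No test was refitted, because the gene table has no value per library. Log2 ratios used a pseudocount of 1 FPKM, and overall inclusion divides the reads summed over libraries by effective length. Of 75 members, 74 matched GENCODE M21 with their version, and coordinates are 1-based. Members with at least 5 FPKM, and the next 3 largest ratios of each sign among all others, untested ones included (Cyp3a44), were named by rule. Other members named, such as Cyp2u1, were chosen after their values were seen. Members and lists were chosen with earlier results of these data known, and 1 tuft cell marker is not reported here. Alternatives were other thresholds, pseudocounts, centring and read minimums. Only the log2 ratio, the inclusion level and the rule for symbols were checked on made-up input. The ratio check reversed its own formula, so it could not fail. Versions were scipy 1.17.1, matplotlib 3.10.9, pandas 2.3.3, numpy 2.4.6 and Python 3.11.15.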

Additional observations from a re-analysis of the deposited data

How the results depend on the processing

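The number of members called stayed at 0 at q < 0.01, at q < 0.1, with a minimum of 1 FPKM and with a log2 fold change of 1 or more in size. The median log2 ratio of members was -0.074 after centring on all tested genes of at least 1 FPKM and -0.023 over members of at least 1 FPKM, of which 10 were lower. The summed FPKM of PTBP1_KO was 99.2% of WT after centring, so the side of 100% turned, and 102% without Cyp4f14. A minimum difference of 0.05 gave 1 changed splicing event and no minimum gave 2, by construction. Leaving out each splicing library in turn, with the authors' FDR kept, gave 0 to 1 changed event. The 1 was Cyp4f13, without the third library of the first set. That setting, no minimum, 20 reads in every library and the sum without genes that share words were chosen after the data were seen. Centring shifted ratios by 0.02, raised the number of lower members from 18 to 21 and turned Cyp2d26 (-0.0086), Cyp2r1 (-0.0039) and Cyp2u1 (-0.0022). No paired analysis was possible because the gene table has 1 value per group and the splicing columns name no genotype or replicate. No library could be left out of the gene results.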

Other observations

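The reads of the Cyp4f13 exon of the decay transcript were listed for each library, in 2 sets of 3 whose genotype the headers do not name. In the first set, inclusion was supported by 35 of 189, 36 of 160 and 17 of 196 reads, or 10.5% (95% exact interval 7.28% to 14.5%), 13.0% (9.09% to 17.9%) and 4.66% (2.71% to 7.44%). In the second set it was supported by 0 of 145, 3 of 123 and 5 of 116 reads. These are 0% (3 reads would be 1.07%), 1.27% (0.261% to 3.71%) and 2.26% (0.732% to 5.28%). The levels of the sets do not overlap, while the intervals of 4.66% and 2.26% do. Intervals cover counting error only. For the Cyp4f16 exon, skipping was supported by 5 of 594, 20 of 461 and 14 of 540 reads in the first set and by 3 of 624, 4 of 501 and 7 of 562 in the second, and inclusion levels of the sets overlap.

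P450 genes of other families were read beside the members. Of 19 genes, 6 were tested, with 2 higher and 4 lower. Of the 6, 0 were called, against 0.537% of all tested genes, so this count does not set them apart. Cyp51, which acts in cholesterol synthesis, had 35.4 FPKM in WT and 38.9 in PTBP1_KO. Cyp27a1, the sterol 27-hydroxylase, had 15.5 FPKM and 14.7 FPKM, and Cyp39a1, an oxysterol hydroxylase, 5.84 FPKM and 5.11 FPKM. The pseudogene Cyp4f41-ps had 2.75 FPKM in WT and 2.29 in PTBP1_KO, a higher WT level than 5 of the 9 Cyp4f genes.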
